A study of Mus musculus with 6 samples.

Results

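The 10 genes described here encode 4 subunits of the transcription factor NF-κB (Nfkb1, Nfkb2, Rela and Relb) and 6 proteins that feed back on it (Nfkbia, Nfkbie, Nfkbiz, Bcl3, Tnfaip3 and Birc3). They were taken by symbol from the count tables of cultured mouse pancreatic acinar cells, and each symbol matched 1 of 23282 rows. The orphan nuclear receptor ERRγ was conditionally knocked out (cKO) in 3 libraries, labelled ERRgamma -/-, and 3 control libraries are labelled wild type. All were of strain C57BL/6J, from primary pancreatic acinar cells cultured with EGF, serum, antibiotics and trypsin inhibitor in a Waymouth's base. The sources used here do not give the Cre driver, the deleted part of the gene, the age of the animals, the time in culture or whether the libraries came from separate animals. The p-values below therefore measure library-to-library spread, part of which may be technical. The question of the comparison was which transcripts differ when acinar cells lack ERRγ.

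NF-κB factors are dimers of Rel-domain proteins that are held in the cytoplasm by inhibitors of the IκB family. A signal from receptors for TNF, IL-1 or bacterial products activates the IκB kinase complex, which marks the inhibitor for degradation and frees the dimer to enter the nucleus. Several of the genes it then switches on, IκBα and A20 among them, encode its own brakes, so their transcripts are commonly read as a sign of pathway activity. A slower, non-canonical branch runs through the kinase NIK, which triggers processing of p100 to p52 and acts mainly with RelB. In the exocrine pancreas NF-κB is known for its early activation in acute pancreatitis.

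Promoters of 4 of the genes are shown because binding sites for NF-κB in its own feedback genes are the textbook basis of this loop, and because Rela is the gene of the set with the smallest change below. Each window runs from 250 bases before to 50 bases after the annotated start (RefSeq, GRCm38.p6), 5′ to 3′ on the gene's strand. Capitals mark matches to the κB consensus decamer GGGRNNYYCC on either strand (R is A or G, Y is C or T, N is any base), with overlapping matches joined. The windows are chr12:55492598-55492897 (minus strand) for Nfkbia and chr10:19015361-19015660 (minus strand), the first of 2 windows of Tnfaip3. The others are chr19:46304487-46304786 (plus strand), the first of 3 annotated starts of Nfkb2, and chr19:5637291-5637590 (plus strand) for Rela.
Nfkbia: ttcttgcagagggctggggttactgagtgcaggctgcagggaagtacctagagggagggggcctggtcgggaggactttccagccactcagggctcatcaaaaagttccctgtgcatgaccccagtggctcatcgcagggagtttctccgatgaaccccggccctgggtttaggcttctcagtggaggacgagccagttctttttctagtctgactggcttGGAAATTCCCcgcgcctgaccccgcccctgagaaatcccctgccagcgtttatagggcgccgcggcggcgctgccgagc
Tnfaip3: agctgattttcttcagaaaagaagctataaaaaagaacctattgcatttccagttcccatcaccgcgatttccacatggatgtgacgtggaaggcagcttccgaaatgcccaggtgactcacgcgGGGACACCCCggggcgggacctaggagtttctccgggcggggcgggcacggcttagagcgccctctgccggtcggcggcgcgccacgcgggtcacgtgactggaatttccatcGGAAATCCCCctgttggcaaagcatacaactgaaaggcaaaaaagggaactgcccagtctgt
Nfkb2: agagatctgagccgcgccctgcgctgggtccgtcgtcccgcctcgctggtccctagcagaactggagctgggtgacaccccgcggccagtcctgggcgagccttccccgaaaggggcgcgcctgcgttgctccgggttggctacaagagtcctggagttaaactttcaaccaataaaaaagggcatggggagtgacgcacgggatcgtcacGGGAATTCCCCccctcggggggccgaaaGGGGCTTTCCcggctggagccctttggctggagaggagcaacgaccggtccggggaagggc
Rela: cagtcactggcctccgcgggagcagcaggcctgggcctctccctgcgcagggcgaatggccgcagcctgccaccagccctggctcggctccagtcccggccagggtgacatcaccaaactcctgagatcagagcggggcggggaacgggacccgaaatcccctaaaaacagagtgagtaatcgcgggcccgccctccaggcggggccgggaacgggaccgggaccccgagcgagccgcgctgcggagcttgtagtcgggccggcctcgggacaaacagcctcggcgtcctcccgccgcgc

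RefSeq promoter windows were at hand for 7 of the 10 genes, and 5 of these 7 held at least 1 match. Among all genes with such a window 9.55% held a match, and 8.46% of all 32851 windows did. In Nfkbia, GGGAATTTCC lies on the opposite strand at bases -29 to -20 from the start site. Tnfaip3 has GGGGATTTCC on the opposite strand at -12 to -3 and a second match, GGGACACCCC, at -125 to -116, where both strands match. The first Nfkb2 window holds GGGAATTCCC at -39 to -30, which matches on both strands, an overlapping match at -38 to -29 on the opposite strand, and GGGGCTTTCC at -11 to -2. Bcl3 has GGGAAGTCCC at 2 to 11, a match on both strands, and Nfkbie has GGGGGATTCC at -106 to -97. The windows of Rela and Birc3 and the second window of Tnfaip3 held no match to these letters. A match is a description of the sequence, and no binding was measured. Whether matches go with the size of the changes below was not tested.

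All 10 genes were higher in the cKO libraries. Each passed the test (edgeR quasi-likelihood test, TMM scale, Benjamini-Hochberg adjusted p under 0.05), where 24.0% of 13132 tested rows were called higher and 20.7% lower. Their log2 fold changes ran from 0.81 for Rela to 2.55 for Tnfaip3 with a median of 1.91, beside a median of 0.10 over all tested rows. For all 10 genes every cKO library lay above every control library, which held for 30.7% of tested rows. All 10 passed the filter on low counts. Nfkb1, Nfkbie and Birc3 passed it through their cKO libraries only, so their place among the tested rows depends on the group where they are high. In bulk samples fewer cells of a type and less RNA per cell cannot be told apart, and markers of macrophages and fibroblasts also rose in these libraries (values below).

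Library totals were 15.2 M to 17.0 M counts in cKO and 23.0 M to 25.2 M in control. A panel of 14 acinar markers, most of them digestive enzymes, took 6.76% to 17.4% of counts in cKO and 19.5% to 20.9% in control, with cKO replicate 2 nearest to the controls. TMM scaling assumes that most genes do not differ, and gave effective sizes of 33.1 M to 60.0 M in cKO and 7.52 M to 8.49 M in control, and levels below are CPM (counts per M) of these sizes. A fold change below is thus one against the middle of the gene distribution. Fitted on library totals, the median of all tested rows was 3.37 on the log2 scale. The limit under a count of 0 (3 counts) lay at 0.05 to 0.0905 CPM in cKO and 0.353 to 0.399 CPM in control. Esrrg itself was counted 0, 9 and 1 times in cKO and 0, 0 and 0 times in control, which gives no check of the genotype labels.

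**Figure D1:**
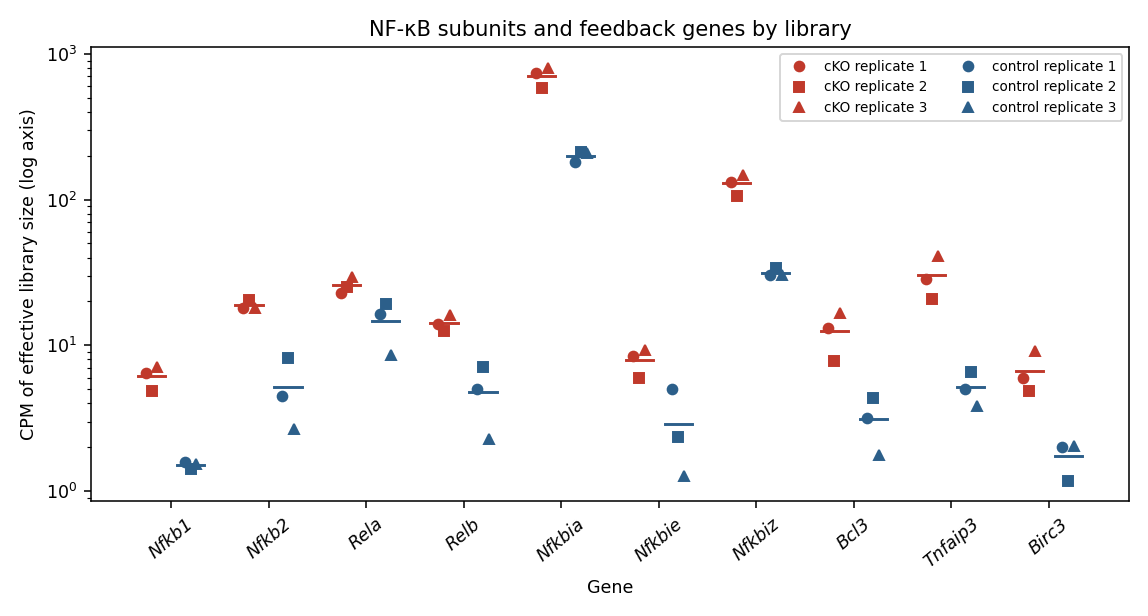
Level of each gene in each library, as CPM of the effective library size on a log axis. Points are single libraries, cKO in red and control in blue, and bars are group means. Every red point lies above every blue point of its gene, with the narrowest gap for Rela (22.8 against 19.2 CPM) and Nfkbie (6.00 against 5.05 CPM).

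Nfkb1 (chromosome 3, 135584655 to 135691547, minus strand, GRCm38) encodes p105, the precursor of the DNA-binding subunit p50. It was counted 384, 160 and 428 times in cKO replicates 1, 2 and 3, against 12 times in each control library. That is 6.14 ± 1.19 CPM in cKO and 1.51 ± 0.09 CPM in control (SD, n = 3 each). The control libraries were thus level with each other at a low count, and the lowest cKO library stood 3.02 times above the highest of them. Nfkb1 rose by 2.03 ± 0.32 on the log2 scale (SE; edgeR adjusted p = 0.000137).

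Nfkb2 (chromosome 19, 46304320 to 46312385, plus strand) encodes p100, which serves both as precursor of p52 and as an inhibitor that holds RelB. Its counts were 1079, 675 and 1086 in cKO and 34, 70 and 21 in control. The level was 18.9 ± 1.28 CPM in cKO and 5.14 ± 2.84 CPM in control (SD, n = 3 each), so the cKO libraries lay within 1.12 times of each other and the control libraries spread over 3.09 times. Nfkb2 rose by 1.86 ± 0.29 (log2, SE; edgeR adjusted p = 0.000169). Its last 299 bases overlap Psd on the opposite strand, and the strand setting of the counting is not given, so reads of these genes cannot be told apart there. Psd was counted 541, 282 and 461 times in cKO and 31, 28 and 27 times in control (log2 fold change 1.22 ± 0.25, SE; edgeR adjusted p = 0.000919).

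Relb (chromosome 7, 19606217 to 19629438, minus strand), the partner of p52 in the non-canonical branch, had 837, 414 and 971 counts in cKO and 38, 60 and 18 in control. These are 14.3 ± 1.86 CPM in cKO and 4.80 ± 2.40 CPM in control (SD, n = 3 each). Control replicate 3 was the lowest of the controls, as it was for Nfkb2 and Rela. Relb rose by 1.56 ± 0.30 (log2, SE; edgeR adjusted p = 0.000757).

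Rela (chromosome 19, 5637483 to 5648130, plus strand) encodes p65, the main activating subunit of the canonical branch. Its counts were 1353, 838 and 1756 in cKO and 123, 163 and 68 in control, or 25.8 ± 3.28 CPM in cKO and 14.7 ± 5.47 CPM in control (SD, n = 3 each). The gap between the groups was narrow, with the lowest cKO library at 1.19 times the highest control library. Rela rose by 0.81 ± 0.24 (log2, SE; edgeR adjusted p = 0.0142), and 28.7% of tested rows had a larger fold change. Rela was the only gene of the 10 to lose its call when a library was left out: without cKO replicate 3 its log2 fold change was 0.71 (edgeR adjusted p = 0.0571).

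Nfkbia (chromosome 12, 55489410 to 55492647, minus strand) encodes IκBα, the inhibitor that is degraded first and made again from its NF-κB-driven gene. It was counted 43961, 19424 and 47934 times in cKO and 1364, 1788 and 1648 times in control. The level was 709 ± 110 CPM in cKO and 200 ± 16.6 CPM in control (SD, n = 3 each). Its counts made up 73.0% to 74.7% of the summed counts of the 10 genes in cKO and 71.3% to 79.4% in control. Nfkbia rose by 1.82 ± 0.21 (log2, SE; edgeR adjusted p = 8.66e-06), a fold change of 3.54. Its libraries spread over 1.36 times within cKO and 1.16 times within control.

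Nfkbie (chromosome 17, 45555703 to 45563169, plus strand) encodes IκBε, a second cytoplasmic inhibitor. Its 504, 199 and 555 counts in cKO stood against 38, 20 and 10 in control, and its level was 7.92 ± 1.70 CPM in cKO and 2.89 ± 1.95 CPM in control (SD, n = 3 each). The control libraries differed 3.98 times among themselves, with control replicate 1 close under the lowest cKO library. Nfkbie rose by 1.47 ± 0.38 (log2, SE; edgeR adjusted p = 0.00642), and the value without control replicate 1 was 2.12.

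The nuclear IκB proteins act on chromatin instead of holding dimers in the cytoplasm. Nfkbiz (chromosome 16, 55811375 to 55838899, minus strand), whose product IκBζ is needed in macrophages for a set of secondary response genes such as Il6, had 7893, 3500 and 8909 counts in cKO and 228, 286 and 239 in control. Its 129 ± 21.8 CPM in cKO and 31.4 ± 1.94 CPM in control (SD, n = 3 each) gave a rise of 2.04 ± 0.17 (log2, SE; edgeR adjusted p = 8.01e-07), the smallest adjusted p of the 10 genes. Bcl3 (chromosome 7, 19808462 to 19822770, minus strand), whose product binds homodimers of p50 or p52, had 786, 258 and 996 counts in cKO and 24, 37 and 14 in control. It reached 12.5 ± 4.46 CPM in cKO and 3.11 ± 1.29 CPM in control (SD, n = 3 each), a rise of 2.01 ± 0.34 (log2, SE; edgeR adjusted p = 0.000315). Among the cKO libraries Bcl3 varied most of the 10 genes, 2.14 times between replicates 3 and 2.

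Tnfaip3 and Birc3 encode ubiquitin-editing proteins that sit at the TNF receptor complex. Tnfaip3 (chromosome 10, 19000910 to 19015657, minus strand) encodes A20, which dampens signalling to the IκB kinases. It was counted 1707, 695 and 2456 times in cKO and 38, 56 and 30 times in control, or 30.2 ± 10.1 CPM in cKO and 5.15 ± 1.40 CPM in control (SD, n = 3 each). Even the lowest cKO library stood 3.18 times above the highest control library. Tnfaip3 rose by 2.55 ± 0.27 (log2, SE; edgeR adjusted p = 7.26e-06), or 5.85-fold, and 6.25% of tested rows had a larger fold change.

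Birc3 (chromosome 9, 7848699 to 7873186, minus strand) encodes the ubiquitin ligase cIAP2, which links RIPK1 to the kinase complexes and helps to keep NIK low. Its counts were 354, 161 and 552 in cKO and 15, 10 and 16 in control, at 6.67 ± 2.26 CPM in cKO and 1.74 ± 0.48 CPM in control (SD, n = 3 each). Birc3 rose by 1.95 ± 0.36 (log2, SE; edgeR adjusted p = 0.000418). Its neighbour and paralog Birc2, which encodes cIAP1, had 728, 375 and 790 counts in cKO and 75, 78 and 77 in control. Birc2 had a log2 fold change of 0.35 ± 0.19 (SE; edgeR adjusted p = 0.15). Among rows of at least 10 CPM in 3 libraries it was 0.56 and passed (edgeR adjusted p = 0.0131). Birc2 met that filter through its cKO libraries (9.19 to 9.97 CPM in control). All 6 genes of the set tested there also had larger fold changes than in the main fit. RefSeq lists Birc2 and Birc3 each as a synonym of the other, so the split between them depends on the annotation used.

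**Figure D2:**
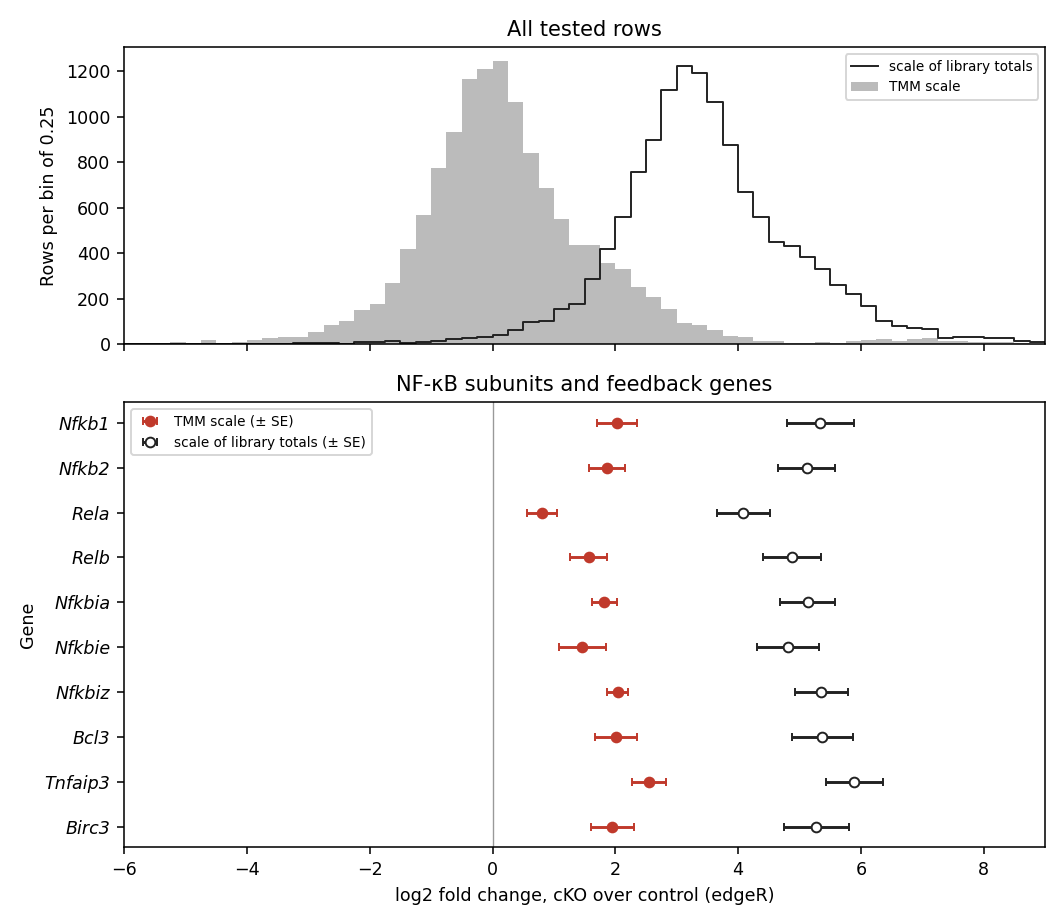
Distribution of log2 fold changes over all tested rows (top) and values of the 10 genes with SE bars (bottom), on the TMM scale and on the scale of library totals. All 10 genes are above 0 on both scales, and the median of all rows lies at 0.10 on the TMM scale and at 3.37 on library totals.

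The direction of the 10 genes was the same on both scales, and on library totals too every cKO library lay above every control library for all 10, as it did for 96.9% of tested rows. As a share of the whole library, Nfkbia took 2898, 1145 and 2930 CPM in cKO and 55.8, 71.0 and 71.6 CPM in control. The log2 fold change on library totals was 4.09 ± 0.43 for Rela, 5.14 ± 0.45 for Nfkbia and 5.90 ± 0.47 for Tnfaip3 (SE), with a median of 5.21 over the 10 genes. On that scale 96.4% of tested rows were called higher, so a call there says little about any gene. What both scales share is the distance from the median of all rows, which is 1.81 on TMM and 1.84 on library totals for the median of the 10 genes.

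Ratios between genes within a library do not depend on either scale. The log2 ratio of Tnfaip3 to Rela, with 2 counts added on each side, was 0.33, -0.27 and 0.48 in cKO and -1.64, -1.51 and -1.13 in control. It averaged 0.18 ± 0.40 in cKO and -1.43 ± 0.27 in control (SD, n = 3 each), a difference of 1.61 with no overlap. Relb to Rela differed by 0.77, Bcl3 to Rela by 1.06 and Nfkbiz to Rela by 1.16, again with no overlap between the groups. Each of these 4 ratios had an exact 2-sided permutation p of 0.1, the smallest that 3 libraries against 3 can give, and 0.25 after Benjamini-Hochberg adjustment over 10 ratios. For Nfkbia to Rela the difference was 0.96, but the groups overlapped, since control replicate 3, with its low Rela count, had 4.56 beside 4.53 to 5.02 in cKO and 3.44 to 3.45 in the other controls (exact permutation p = 0.2, adjusted 0.286). The ratio of Nfkb2 to Nfkb1 was 1.49, 2.06 and 1.34 in cKO and 1.36, 2.36 and 0.72 in control, with the groups interleaved (difference 0.15, exact permutation p = 0.9). The summed feedback genes over the summed subunits differed by 0.47 (3.77 ± 0.20 in cKO and 3.30 ± 0.63 in control, SD, n = 3 each; exact permutation p = 0.4, adjusted 0.444).

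**Figure D3:**
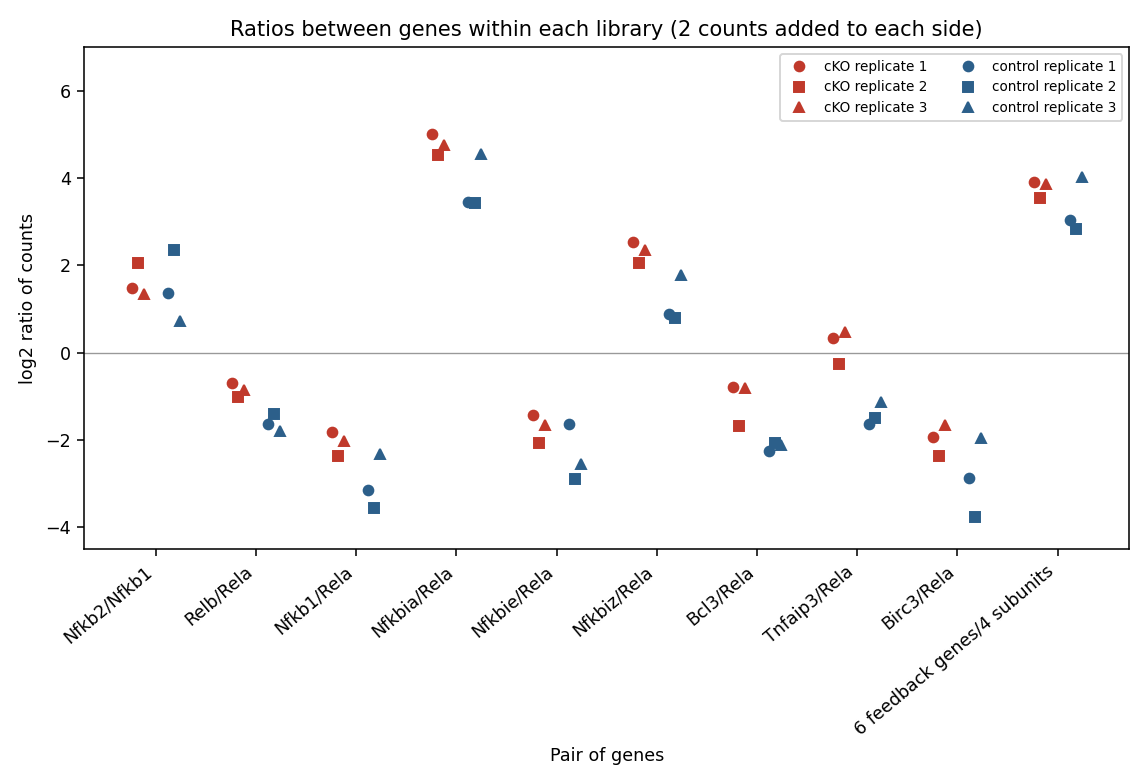
Log2 ratios of counts between pairs of genes in each library, cKO in red and control in blue, with 2 counts added to each side. Red and blue points separate for Relb, Nfkbiz, Bcl3 and Tnfaip3 over Rela and interleave for Nfkb2 over Nfkb1.

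Within the cKO group, 8 of the 10 genes were lowest in replicate 2, and how many of all tested rows did the same was not counted. The exceptions were Nfkb2, at 18.2, 20.4 and 18.1 CPM in replicates 1, 2 and 3, and Rela, at 22.8, 25.3 and 29.3 CPM. The summed level of the 10 genes was 991, 794 and 1095 CPM in cKO and 255, 295 and 264 CPM in control.

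By pattern over the 6 libraries, each gene was set beside the tested row with the smallest root mean square difference of centred log2 CPM. This was Tnip1 for Nfkbia (0.077), Cd44 for Nfkb1 (0.077), C1ra for Nfkbiz (0.067), Wsb1 for Rela (0.049) and Tgfbr3 for Tnfaip3 (0.097). It was Pald1 for Nfkb2 (0.156), Dnah11 for Relb (0.123), Tmem154 for Bcl3 (0.132) and Fam65b for Birc3 (0.154), rows whose control counts ran from 1 to 10. Among the 10 genes themselves the closest pair was Nfkb1 and Nfkbiz (0.105), and the nearest of the set to Rela was Relb (0.438).

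Other Rel and IκB genes did not all do the same. Rel, the subunit c-Rel of lymphoid and myeloid cells, was counted 197, 57 and 178 times in cKO and 6, 2 and 11 times in control. It rose by 1.74 ± 0.54 (log2, SE; edgeR adjusted p = 0.0169), a call lost without cKO replicate 1 or 3 or control replicate 1 or 2 (adjusted p = 0.0555 to 0.0684), and the value was 2.41 without control replicate 3. Nfkbid, which encodes the nuclear protein IκBNS, had 712, 234 and 704 counts in cKO and 8, 22 and 6 in control and rose by 2.78 ± 0.39 (edgeR adjusted p = 5.13e-05; 3.50 without control replicate 2). Nfkbib, which encodes the cytoplasmic inhibitor IκBβ, had 29.5 ± 3.11 CPM in cKO and 38.3 ± 9.21 CPM in control (SD, n = 3 each). This gave -0.38 ± 0.19 on the log2 scale (SE; edgeR adjusted p = 0.113), and -0.56 without control replicate 3 (adjusted p = 0.0261).

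Over 8 lists of the pathway with the 10 genes left out, 64 of 110 tested genes (58.2%) rose and 7 (6.36%) fell, with a median of 1.37. Over all tested rows 24.0% were called higher and 20.7% lower, with a median of 0.10. Some listed genes that rose passed the filter on low counts through their cKO libraries only. The counts and medians of these lists thus depend partly on the group where those genes are high. On library totals all 110 were called higher, so the 7 that fell did so relative to the bulk of genes only.

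Receptors and ligands were mostly higher. Of 19 tested receptors 15 rose (78.9%, beside 24.0% of all tested rows), with a median of 2.06. Among them were the TNF receptors Tnfrsf1a (1.37 ± 0.17) and Tnfrsf1b (2.23 ± 0.23), the IL-1 receptor Il1r1 (3.29 ± 0.38) and the LPS co-receptor Cd14 (2.12 ± 0.28; log2, SE). Most of these 15, such as Il1r1 with 9, 11 and 3 counts in control, passed the filter on low counts through their cKO libraries only. The count and median of the receptors thus depend partly on the group where they are high. The lymphotoxin receptor Ltbr, named after its value was seen, was the 1 that fell (-0.60 ± 0.16; edgeR adjusted p = 0.00566). Of 7 tested ligands 6 rose: the levels of Tnf were 20.2 ± 4.24 CPM in cKO and 5.07 ± 1.34 CPM in control, and those of Il1b 73.4 ± 23.5 CPM in cKO and 16.2 ± 2.73 CPM in control (SD, n = 3 each). Tnf rose by 1.99 ± 0.24, Il1b by 2.18 ± 0.24, Il33 by 2.05 ± 0.24 and Il18 by 2.02 ± 0.45 (log2, SE). The edgeR adjusted p-values of these 8 genes that rose ran from 4.35e-06 to 0.00213.

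Kinases and adaptors were more mixed. Of 11 kinases and partners of the IκB kinase complex 4 rose (36.4%) and 1 fell (9.09%), beside 24.0% and 20.7% of all tested rows. The list's summed level was 79.6 to 81.5 CPM in cKO and 74.5 to 86.2 CPM in control. Map3k14, which encodes NIK, had 216, 156 and 215 counts in cKO and 7, 7 and 11 in control and rose by 1.92 ± 0.39 (edgeR adjusted p = 0.000994). Map3k8, the kinase TPL2 that p105 holds inactive, had 146, 58 and 157 counts in cKO and 0, 2 and 7 in control and rose by 2.59 ± 0.69 (edgeR adjusted p = 0.00654; 4.16 without control replicate 3). Ikbkb, the catalytic IKKβ, rose by 0.80 ± 0.24 (edgeR adjusted p = 0.0140), a call lost without cKO replicate 1 (0.0532), without control replicate 1 (0.0669) or in libraries thinned to the smallest effective size (0.0592). Map3k7, which encodes the upstream kinase TAK1, fell by 1.02 ± 0.20 (edgeR adjusted p = 0.000779). Without cKO replicate 1, without control replicate 1 or after that thinning, this list had 2 genes that rose, and without control replicate 1 it had 2 that fell. In these fits, in that order, 2561 of 13460, 2720 of 13930 and 2723 of 12286 tested rows were called higher. The list's share that rose was near that of all rows there.

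Of 19 tested adaptors 7 rose (36.8%) and 1 fell (5.26%), beside 24.0% and 20.7% of all tested rows. Myd88 (1.29 ± 0.25) and Irak4 (1.37 ± 0.25; log2, SE) rose, with edgeR adjusted p of 0.000704 for Myd88 and 0.00041 for Irak4. Irak1, the kinase that MyD88 recruits through IRAK4, fell by 1.68 ± 0.17 and had 39.2 ± 7.38 CPM in cKO and 126 ± 11.9 CPM in control (SD, n = 3 each; edgeR adjusted p = 3.31e-06). The number of adaptors that rose was 3 without cKO replicate 3, where 2388 of 13421 tested rows were called higher, a share near that of the adaptors.

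Among 18 other ubiquitin ligases, deubiquitinases and brakes 7 rose (38.9%) and 2 fell (11.1%), beside 24.0% and 20.7% of all tested rows. Tnip1, which encodes the A20-binding protein ABIN1, rose by 1.72 ± 0.18 with 26.7 ± 2.46 CPM in cKO and 8.10 ± 0.69 CPM in control (SD, n = 3 each; edgeR adjusted p = 3.99e-06). Tnip3 (1.42 ± 0.23), the inhibitory IRAK-M gene Irak3 (1.95 ± 0.31) and Zc3h12a, whose product degrades cytokine transcripts (2.13 ± 0.30; log2, SE), also rose. The genes that fell, Tank (-0.91 ± 0.23) and Commd1 (-0.80 ± 0.25), were named after their values were seen. Commd1 lost its call without cKO replicate 3 or control replicate 1 or 3 (edgeR adjusted p = 0.0564 to 0.0931).

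Of 32 tested genes listed as NF-κB targets, 23 rose (71.9%) and 2 fell (6.25%), with a median of 1.94. Over all tested rows these shares were 24.0% and 20.7%, with a median of 0.10. The prostaglandin synthase gene Ptgs2 (4.71 ± 0.32), the complement gene C3 (2.44 ± 0.23), the immediate early gene Ier3 (2.11 ± 0.19) and the adhesion receptor Cd44 (2.07 ± 0.19; log2, SE) had the smallest p-values, with edgeR adjusted p from 4.71e-07 to 1.56e-06. Ier3 had 11849, 5146 and 12735 counts in cKO and 333, 294 and 415 in control. Ptgs2, with 4, 6 and 5 counts in control, passed the filter on low counts through its cKO libraries only, as did some other targets that rose. The superoxide dismutase gene Sod2 (-0.97 ± 0.17; edgeR adjusted p = 0.000346) and the chemokine gene Cxcl12 (-1.26 ± 0.28; adjusted p = 0.00253) fell, and both were named after their values were seen.

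**Figure D4:**
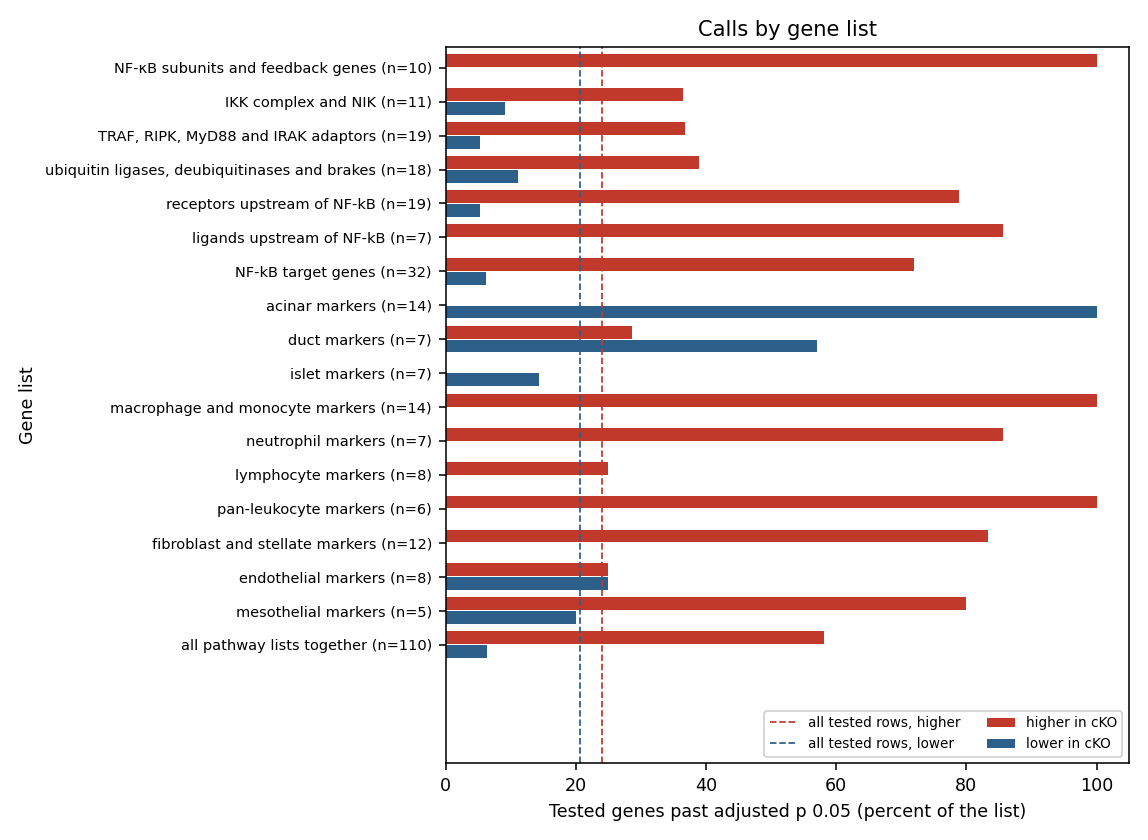
Share of tested genes in each list that passed adjusted p 0.05 (edgeR, TMM scale), higher in cKO in red and lower in blue, with the shares of all tested rows as dashed lines at 24.0% and 20.7%. Lists with fewer than 5 tested genes are left out.

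Markers of several other cell types moved in the same libraries, on the TMM scale unless another is named. All 14 macrophage and monocyte markers rose, with a summed level of 563 to 1124 CPM in cKO and 142 to 180 CPM in control, the most abundant being C1qb (189.5 ± 56.2 CPM in cKO, 21.7 ± 3.61 in control) and C1qa (148 ± 39.5 CPM in cKO, 36.8 ± 7.02 in control; SD, n = 3 each). All 6 pan-leukocyte markers rose (169 to 347 CPM in cKO, 44.0 to 64.3 in control), with log2 fold changes of 2.25 for Laptm5 and 1.86 for Lcp1. So did 6 of 7 neutrophil markers (32.6 to 61.1 CPM in cKO, 8.77 to 12.2 in control), a count of 4 without cKO replicate 3 or control replicate 1 or 2. Mpo, Elane, Csf3r and Retnlg among them passed the filter on low counts through their cKO libraries only, as did some macrophage and fibroblast markers. The neutrophil marker that did not pass was Cxcr2 (log2 fold change 0.53 ± 0.72, SE; edgeR adjusted p = 0.581). Of 12 fibroblast and stellate markers 10 rose (3603 to 5135 CPM in cKO, 732 to 829 in control), Col3a1 by 2.71 and Col1a2 by 2.37 (log2). Of 5 mesothelial markers 4 rose and 1 fell (122.5 to 129.8 CPM in cKO, 77.4 to 87.5 in control). Of 8 tested lymphocyte markers 2 rose (25.0%, near the 24.0% of all tested rows), at 9.53 to 12.8 CPM in cKO and 1.18 to 7.44 in control. That count was 1 without cKO replicate 3 or control replicate 3. All 14 acinar markers fell (17260 to 89110 CPM in cKO, 578200 to 679600 in control), a count of 12 without cKO replicate 3 and of 7 on library totals. None of them was at 0 in any of the 6 libraries. Duct markers had 2 of 7 that rose (28.6%) and 4 that fell (57.1%; 108 to 127 CPM in cKO, 208 to 252 in control). Of 8 endothelial markers 2 rose and 2 fell (25.0% each; 16.1 to 24.4 CPM in cKO, 30.4 to 33.9 in control). Of 7 islet markers 1 fell (14.3%; 409 to 843 CPM in cKO, 589 to 948 in control). Over all tested rows 24.0% were called higher and 20.7% lower, so the endothelial counts and the duct rises were near the share of all rows. The 2 endothelial rises were 1 without any single cKO library or without control replicate 2 or 3, and 0 after thinning, and the 2 endothelial falls were 1 without control replicate 3. The islet count was 2 without cKO replicate 2 and 0 without control replicate 2. On library totals no duct, endothelial, islet or mesothelial marker was called lower (edgeR), and 5 of 7 duct, all 8 endothelial, all 7 islet and all 5 mesothelial markers were called higher, so their falls were relative to the TMM scale. No marker of these lists was at 0 in all 6 libraries, and the natural killer marker Ncr1 was at 0 in the 3 control libraries.

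The 10 genes are expressed in leukocytes and fibroblasts as well as in acinar cells, and the part of these cells in their rise was not tested. Relative to the control mean, the macrophage sum stood at 2.83, 1.83 and 2.54 (log2) in cKO replicates 1, 2 and 3, the fibroblast sum at 2.71, 2.20 and 2.60, and the acinar sum at -5.17, -2.80 and -4.66. On the same measure Tnfaip3 stood at 2.48, 2.02 and 2.99 and Nfkbiz at 2.08, 1.75 and 2.24. Nfkb2 stood at 1.82, 1.98 and 1.82 and Rela at 0.63, 0.78 and 0.99. Replicate 2 was thus the lowest of the cKO libraries for Tnfaip3, Nfkbiz and both sums, but the highest for Nfkb2 and the middle for Rela, and it had the highest acinar sum. Without it, the log2 fold changes were 2.76 for Tnfaip3, 2.17 for Nfkbiz and 0.83 for Rela.

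**Figure D5:**
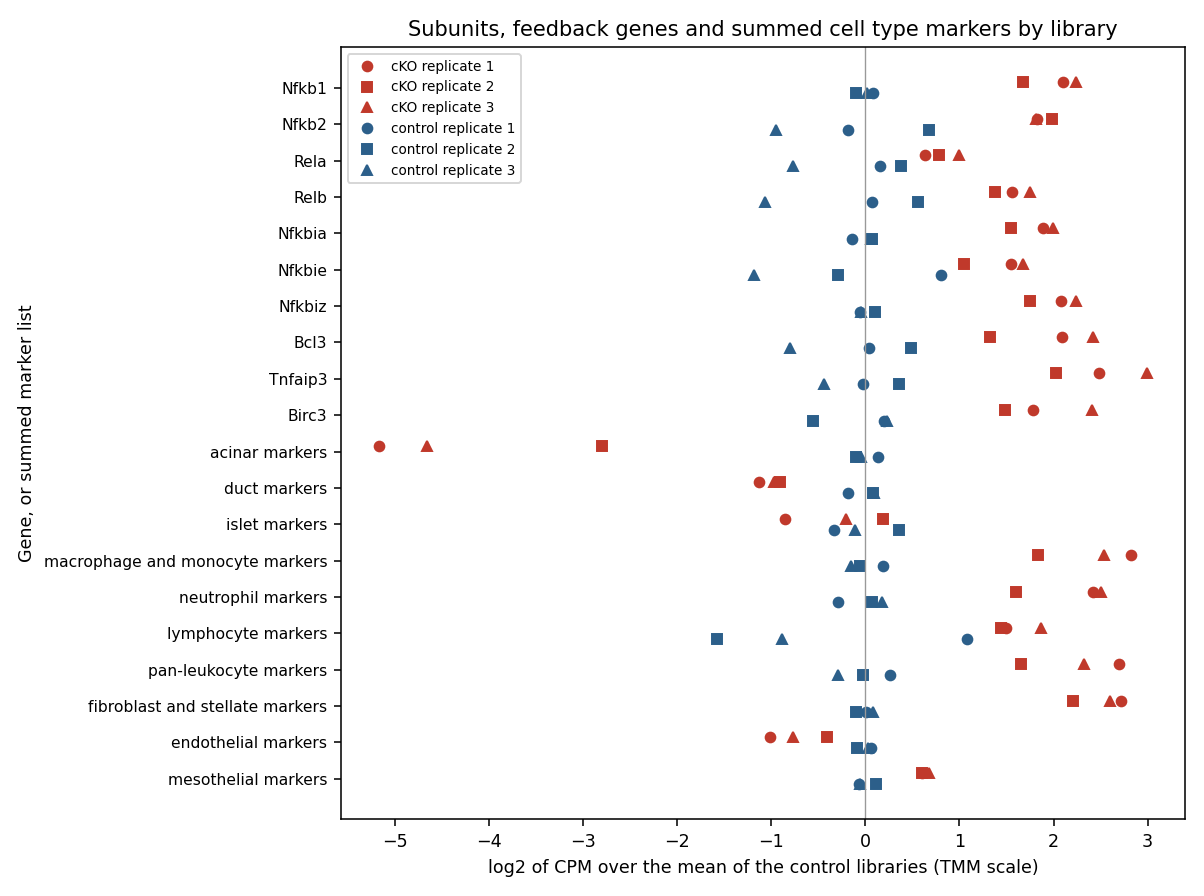
Level of each of the 10 genes and summed level of each marker list in single libraries, as log2 over the mean of the control libraries (TMM scale), cKO in red and control in blue. The 10 genes, the leukocyte lists and the fibroblast list lie to the right in cKO and the acinar markers to the left.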

How the data were processed

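RNA of 6 libraries (3 cKO, 3 control) was read as 3′ tags with a Lexogen QuantSeq kit from 500 ng of total RNA, per the labels' protocols. The authors deposited raw counts per gene symbol, 1 table per library. The submitters' processing notes list Bowtie2, edgeR, mm10 and GRCm38, without versions or roles; the sources used here do not give the counter, annotation or strand setting. No molecular identifiers are described, so floors cover counting error only. Of 23237 symbols, 36 stood on several rows (81 in all), which were kept apart. Replicates of 1 group differed by more than counting noise (chi-square per degree of freedom 14.6 to 370).

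Rows passing filterByExpr (minimum count 10, minimum total 15) were fitted with edgeR 4.0.16 (R 4.3.3; TMM, robust glmQLFit, glmQLFTest; threshold 0.05 after Benjamini-Hochberg adjustment over all tested rows). SE is the log2 fold change over the square root of F. Ratios were compared by exact permutation. A prior count of 2 entered log2 CPM. The alternatives were DESeq2 1.42.0, its size factors, library totals, no filter, a filter of 10 CPM in 3 libraries, thinning to the smallest effective size, the replicate number as a block and leaving out each library. Positions are from GENCODE M21 (GRCm38).

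The genes and lists were chosen with earlier results of these data known. Named beside the 10 genes were up to 4 passing genes per pathway list with the smallest p, Rel, Nfkbib and Nfkbid, the most abundant markers of some lists, and the row most like each gene; Psd and Birc2 were named as overlapping gene and paralog. Skipped for likeness were unnamed gene models and pseudogenes. Values of 2 genes that this rule names are not reported here.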

Additional observations from a re-analysis of the deposited data

How the results depend on the processing

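Of 126 fits of single genes of the set under the alternatives, 125 kept direction and call, 0 reversed, and 1 lost its call (Rela without cKO replicate 3). The fits on library totals are among the 126, and 96.4% of all tested rows were called higher there, so they are no separate check. Nfkb1, Nfkbie and Birc3 passed the main filter through their cKO libraries only, so their fits that keep it depend partly on the group where they are high. With no filter all 10 genes were called higher. With at least 10 CPM in 3 libraries, 6 of the 10 genes were tested and all 6 rose, while the other 4 were removed by the filter. Nfkb2, Relb and Tnfaip3 met it through their cKO libraries only, since none of their control libraries reached 10 CPM. Their place among these rows thus depends on the group where they are high. Their fits under this filter, though counted among the 126, are therefore no separate check of their rise. Under that filter 1443 rows were called higher and 1425 lower of 4190, and 34 of 45 pathway genes rose. On library totals 12654 rows were called higher and 53 lower, with 110 pathway genes higher and 0 lower (edgeR; also 0 at an unadjusted p under 0.05). The log2 ratio of Nfkb2 to Nfkb1 had no stable sign: the difference ran from -0.23 (without control replicate 3) to 0.59 as libraries were left out, and was -0.07 without cKO replicate 2. The labels number the libraries 1 to 3 in both groups, but deviations of same-numbered libraries from their group means correlated at 0.014, -0.030 and -0.008, so the numbers were not used as pairs; with the replicate block 2884 rows were called higher and 2505 lower, and all 10 genes rose, by 0.85 to 2.50 (log2), while 12 of 14 acinar markers fell. The low control counts, 12 per library for Nfkb1 and 10 to 16 for Birc3, limit the precision of the sizes of these rises.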
